A study of Mus musculus with 4 samples.

Results

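The genes described here make cholesterol, take it up from lipoproteins, store it as ester and control it through the transcription factor SREBP2. A list of 29 such genes was matched by symbol to the table of RNA-seq values from large peritoneal macrophages (LPMs), a resident population of the body cavity around the gut, and all 29 were among its 18364 genes. LPMs were sorted as F4/80+ MHCII- CD102+ cells from the peritoneal cavity of C57BL/6 mice aged 8 weeks. The labels give 2 libraries as wild type (WT) and 2 as *Rxra*-/- (Rxra-KO). *Rxra* encodes RXRα, a nuclear receptor that regulates transcription as a partner of other nuclear receptors, among them the sterol-sensing LXRs. Per the study, Rxra-KO LPMs came from *LysM* Cre+ *Rxra* fl/fl mice, in which Cre is expressed in myeloid cells from the *Lyz2* locus, and the controls were *Rxra* fl/fl littermates, so both groups carried the floxed alleles. Whether animals were pooled for a library was not given in the sources used here. No label says that the replicates came from separate mice, so p-values measure only the spread between these libraries, which may be technical.

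Cells build cholesterol from acetyl-CoA. The mevalonate steps lead to farnesyl diphosphate, which also feeds protein prenylation, and the sterol steps begin with squalene and end in cholesterol. When sterol in the endoplasmic reticulum is scarce, SCAP carries SREBP2 to the Golgi, where it is cut and released to switch on most of these genes, and when sterol is plentiful the INSIG proteins hold SCAP back. Macrophages also receive cholesterol from lipoproteins and engulfed cells, through lysosomes, and store the excess as ester.

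Reads recovered from the table numbered 652542 and 947372 in the WT libraries and 629030 and 1047021 in the libraries labelled Rxra-KO. Values are normalised read counts, not divided by gene length, in which 1 read was worth between 0.993 and 1.51. Reads of *Rxra* went against the labels, with 20 and 28 in WT and 33 and 77 in the libraries labelled Rxra-KO (log2 fold change 0.99, limma adjusted p = 0.183). The value of a whole gene also counts reads from parts that a deletion leaves, so it does not show whether the deletion took place, and every direction here is that of the labels. *Lyz2*, the gene that carries Cre, was lower in the libraries labelled Rxra-KO (log2 fold change -1.03, limma adjusted p = 0.00163). Of 8 LPM markers, 6 were called lower in Rxra-KO, and *Timd4* and *Csf1r* were the 2 not called. *Csf1r* went the other way, at 1453.7 and 1637.2 in Rxra-KO against 1363.4 and 1061.5 in WT (log2 fold change 0.36). The summed value of the 8 was 4281 and 5110 in Rxra-KO against 8137 and 8977 in WT. *Itgam* alone supplied 1405.5 and 2102 of the Rxra-KO sums and 3623.9 and 4534 of the WT sums. Of 8 markers of small peritoneal macrophages (SPMs) and monocytes, 6 were called higher, with sums of 4363 and 5775 against 386 and 123. The 2 not called were the monocyte marker *Ly6c2*, at a log2 fold change of -0.78, and *Cd226*, at 0.60, both at 0 to 5 reads per library. Summed markers of B, T, mast and mesothelial cells lay between 12.8 and 43.2 in every library, and the 5 dendritic cell markers summed to 94.1 and 112 in Rxra-KO against 44.7 and 43.9 in WT. Of these 5 only *Cd209a* was called, at 65.5 and 79.95 in Rxra-KO against 22.0 and 14.6 in WT. The 1 neutrophil marker in the table had 0 to 7 reads. Of 10 proliferation genes, 3 were called lower in Rxra-KO. The sum of the 10 was 662 and 1554 in WT, highest in WT replicate 2, and 318 and 270 in Rxra-KO. The part of these differences in the values of the cholesterol genes was not tested. In bulk RNA, fewer cells of a type and less RNA per cell cannot be told apart.

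The comparison asks whether these genes differ between LPMs labelled Rxra-KO and WT. A single gene of the 29 was called. *Fdft1*, which encodes squalene synthase and commits farnesyl diphosphate to sterols, was 2.09-fold higher in Rxra-KO on the log2(value + 1) scale, on which all fold changes are given. The other 28, including all the other enzymes of the route and all 5 genes of sterol sensing and SREBP2 control, were not called. A gene was called at a limma adjusted p under 0.05 over all genes with a log2 fold change of 0.6 or more in size. Calls made up 2.29% of all genes (421 of 18364), 1.32% called higher and 0.969% called lower. Of the 29, 1 was called higher and 0 were called lower by limma. At an unadjusted p under 0.05 there were 3 of the 29, *Fdft1*, *Idi1* and *Insig1*, against 10.1% of all genes. In 3 genes both Rxra-KO libraries lay above both WT libraries (18.8% of all genes), and in 6 both lay below (19.3% of all genes). Log2 fold changes of the 29 had a median of -0.15, beside 0.02 over all genes, with 12 above and 17 below 0. A log2 fold change of 0.6 or more in size was found in 8 of the 29, against 33.9% of all genes.

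**Figure D1:**
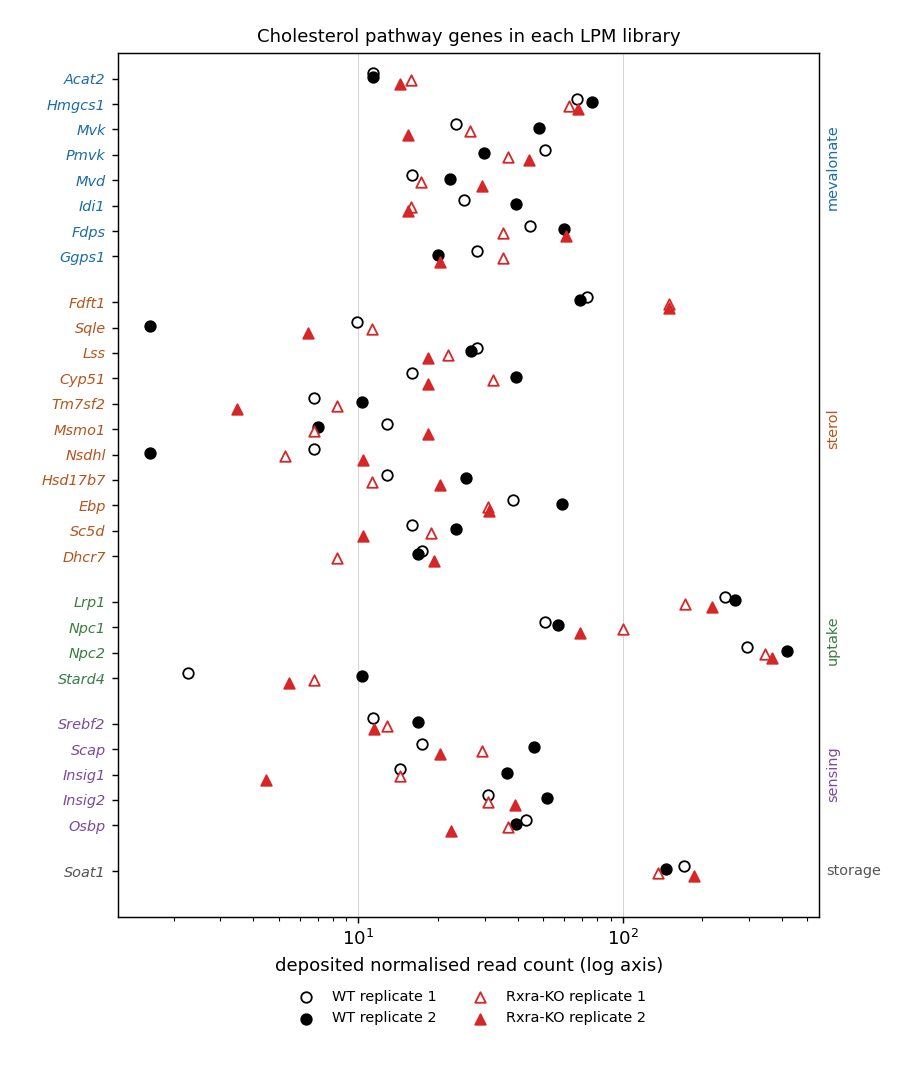
Normalised read count (log axis) of each of the 29 genes in the 2 WT libraries (circles) and the 2 Rxra-KO libraries (triangles), with replicate 1 open and replicate 2 filled, by step of the pathway. For *Fdft1* both triangles lie to the right of both circles, at 150 and 149 against 73.4 and 68.9, while for 20 genes the groups overlap.

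**Figure D2:**
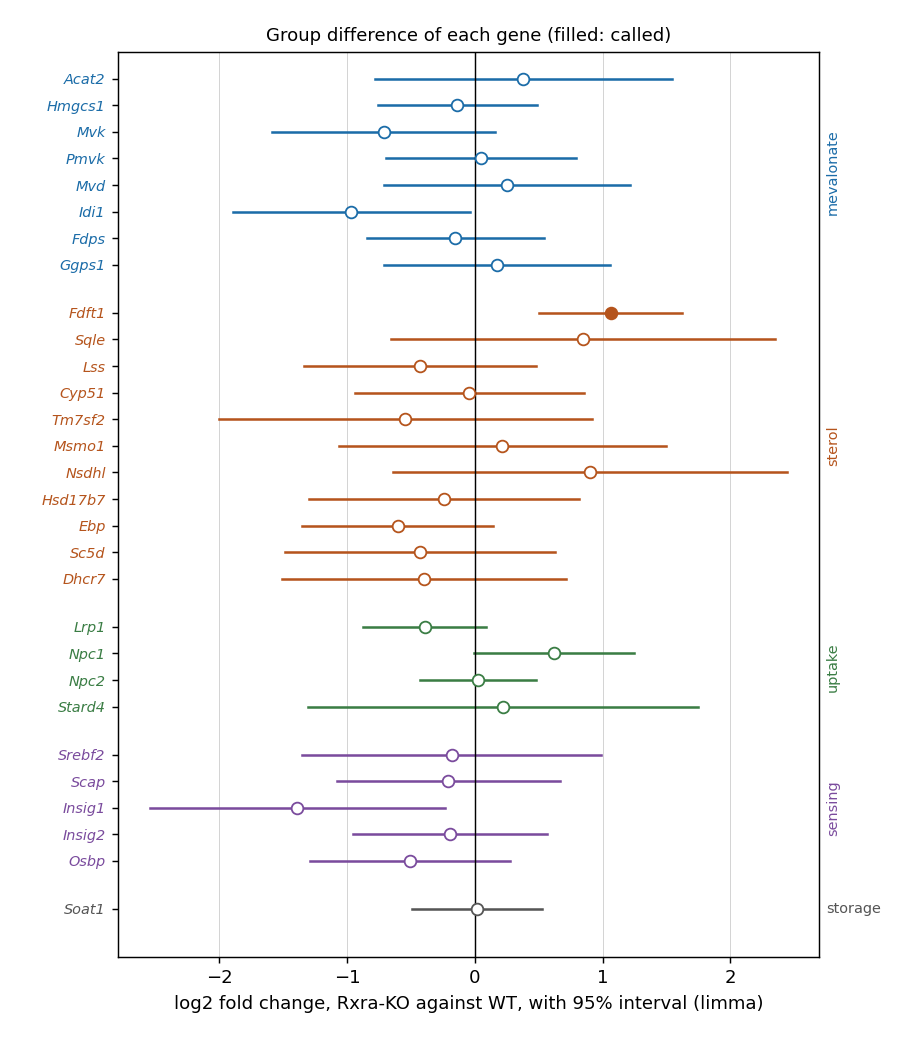
Log2 fold change of each gene, Rxra-KO against WT, with its 95% interval from limma. The filled point is *Fdft1* (1.06, interval from 0.50 to 1.62), the 1 gene called, and the intervals of *Idi1* and *Insig1* also lie below 0 before adjustment.

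The mevalonate steps held 8 genes, and none was called. *Acat2*, the cytosolic thiolase that joins a pair of acetyl-CoA molecules, had values of 11.4 and 11.4 in WT against 15.8 and 14.4 in Rxra-KO. The groups did not overlap, but the values rest on 7 to 14 reads per library and the log2 fold change of 0.38 was not called (adjusted p = 0.936). *Mvk*, mevalonate kinase, had values of 23.5 and 48.3 in WT against 26.3 and 15.4 in Rxra-KO. WT replicate 2 stood above the other 3 libraries, the groups overlapped, and the log2 fold change of -0.71 was not called (adjusted p = 0.646). *Idi1*, the isomerase that supplies dimethylallyl diphosphate, had values of 25.0 and 39.6 in WT against 15.8 and 15.4 in Rxra-KO. Both Rxra-KO libraries lay below both WT libraries, and the 2 Rxra-KO values differed by less than the WT values did. In neither group did the replicates differ beyond counting error, with 95% intervals of their ratio from 0.872 to 3.111 in WT and from 0.416 to 2.463 in Rxra-KO. The log2 fold change of *Idi1* was -0.97, with an SE of 0.47 and a 95% interval from -1.90 to -0.04. It did not pass the adjustment (limma adjusted p = 0.452). The other 5 were within 0.25 of 0 on the log2 fold change scale, and in each the groups overlapped. *Hmgcs1*, the synthase that makes HMG-CoA, averaged 71.9 ± 6.44 in WT against 65.3 ± 3.92 in Rxra-KO (SD, n = 2 each), a log2 fold change of -0.14 with an interval from -0.76 to 0.48. *Fdps*, farnesyl diphosphate synthase, averaged 52.4 ± 11.0 and 48.2 ± 18.2, a log2 fold change of -0.15. The intervals of *Hmgcs1*, *Fdps* and *Pmvk*, phosphomevalonate kinase, whose log2 fold change was 0.05, lay within 1 of 0. *Mvd*, the decarboxylase that follows, and *Ggps1*, which makes the longer prenyl chain used on small GTPases, had log2 fold changes of 0.25 and 0.17. The 8 genes summed to 266 and 308 in WT against 245 and 268 in Rxra-KO, so the groups overlapped, and their median log2 fold change was -0.04, or 0.05 without Rxra-KO replicate 1.

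The sterol steps held 11 genes, of which 1 was called higher and 0 were called lower. *Fdft1* had values of 73.4 and 68.9 in WT against 150 and 149 in Rxra-KO, from 48, 63, 99 and 150 reads. Means were 71.2 ± 3.21 in WT against 149.6 ± 0.239 in Rxra-KO (SD, n = 2 each). Both Rxra-KO libraries lay above both WT libraries, and in neither group did the replicate ratio differ from 1 beyond counting error, with 95% intervals from 0.636 to 1.399 in WT and from 0.770 to 1.302 in Rxra-KO. The log2 fold change was 1.06, with an SE of 0.28 and an interval from 0.50 to 1.62 (limma adjusted p = 0.0131). It stayed between 1.02 and 1.11 with any 1 library left out, but the adjusted p then lay between 0.0654 and 0.258, and the call was lost each time. With DESeq2 on the recovered reads the adjusted p was 0.0782. With 2 libraries against 2, the adjusted p depends mainly on the variance that limma borrows from other genes.

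Of the 29 genes, the 10 enzymes that follow squalene synthase were not called, and they did not share a direction. *Sqle*, the epoxidase that opens the oxygen-dependent part of the route, had values of 9.84 and 1.63 in WT against 11.3 and 6.46 in Rxra-KO, from 6, 1, 7 and 6 reads. Its log2 fold change of 0.84 was not called (adjusted p = 0.821) and was -0.18 without WT replicate 2. *Nsdhl*, which acts in the removal of methyl groups from the ring, had 6.81 and 1.63 in WT against 5.27 and 10.4 in Rxra-KO, from 4, 1, 3 and 10 reads, and a log2 fold change of 0.90 (adjusted p = 0.812). For both genes WT replicate 2 was the lowest library. *Lss*, which folds squalene epoxide into lanosterol, had 28.01 and 26.6 in WT against 21.8 and 18.4 in Rxra-KO, at a log2 fold change of -0.43 without overlap (adjusted p = 0.873). *Ebp*, a sterol isomerase, had 38.6 and 59.1 in WT against 30.9 and 31.3 in Rxra-KO, at a log2 fold change of -0.61 without overlap (adjusted p = 0.656). In *Ebp*, as in *Idi1*, the 2 Rxra-KO libraries lay close together below WT libraries that differed more. The other 6 overlapped between groups. They were *Cyp51*, the lanosterol demethylase, at -0.04, *Tm7sf2*, a sterol reductase, at -0.54, *Msmo1*, a methyl oxidase, at 0.22, *Hsd17b7*, a ketosteroid reductase, at -0.24, *Sc5d*, a desaturase, at -0.43, and *Dhcr7*, the reductase that yields cholesterol, at -0.40 on the log2 fold change scale. Of these, only *Cyp51* had an interval within 1 of 0. The 11 genes summed to 238 and 280 in WT (mean 259 ± 29.7, SD, n = 2) against 305 and 306 in Rxra-KO (306 ± 1.06), with both Rxra-KO sums the higher, while their median log2 fold change was -0.24, or 0.16 without Rxra-KO replicate 1. Without *Fdft1*, a split made after its value was seen, the other 10 summed to 165 and 212 in WT against 155 and 157 in Rxra-KO, and the order was the opposite one. The 19 genes of both routes together summed to 505 and 589 in WT against 550 and 575 in Rxra-KO, which overlapped.

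**Figure D3:**
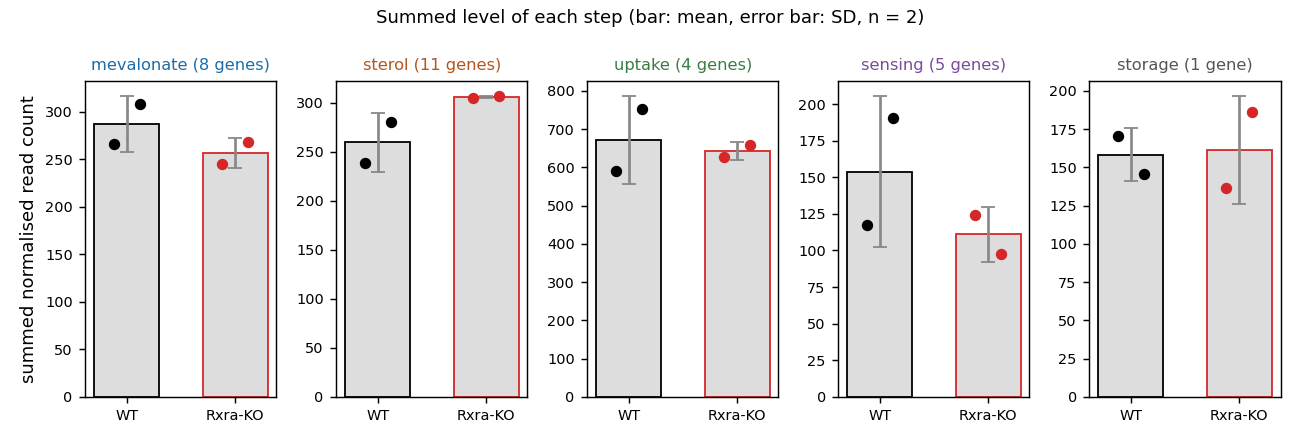
Summed normalised read count of the genes of each step, where bars are means of 2 libraries, error bars are SDs and points are libraries, and each panel has its own axis from 0. Only in the sterol panel do both Rxra-KO points (305 and 306) lie above both WT points (238 and 280), and *Fdft1* supplies 150 and 149 of the Rxra-KO sums.

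The uptake genes were 4, none of them called. *Lrp1*, an endocytic receptor of many lipoprotein ligands, had values of 243 and 266 in WT against 172 and 217 in Rxra-KO, at a log2 fold change of -0.39 with an interval from -0.88 to 0.09 (adjusted p = 0.645). *Npc1*, the lysosomal membrane protein that exports cholesterol, had values of 50.7 and 57.0 in WT against 100.1 and 69.0 in Rxra-KO. Both genes separated the groups, in opposite directions. The log2 fold change of *Npc1* was 0.62, with an interval from -0.01 to 1.25 (adjusted p = 0.503), and the 2 Rxra-KO libraries differed from each other beyond counting error. *Npc2*, the soluble lysosomal protein that hands cholesterol to NPC1, averaged 357 ± 88.2 in WT against 357 ± 14.1 in Rxra-KO (SD, n = 2 each), a log2 fold change of 0.02 with an interval from -0.43 to 0.48. *Stard4*, a cytosolic sterol carrier, rested on 1 to 9 reads per library and had a log2 fold change of 0.22 with an interval from -1.31 to 1.75. The median of the 4 was 0.12 and turned to -0.07 with edgeR, -0.06 with DESeq2 and -0.35 without WT replicate 1, while it was 0.49 without WT replicate 2 and 0.02 with a minimum value of 10.

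The 5 genes of sterol sensing all had a log2 fold change below 0, none of them called, with a median of -0.21. That shared direction did not hold without WT replicate 2, where the median was 0.08 and *Srebf2* (0.08), *Scap* (0.47) and *Insig2* (0.16) were above 0. Nor did it hold without Rxra-KO replicate 2, where *Scap* was at 0.04 and the median was -0.16. Without WT replicate 1 the median was -0.55. *Insig1*, which holds the SCAP-SREBP complex in the endoplasmic reticulum and is itself a target of SREBP, had values of 14.4 and 36.3 in WT against 14.3 and 4.47 in Rxra-KO, from 9, 33, 9 and 4 reads. WT replicate 1 and Rxra-KO replicate 1 were nearly equal, and the gap between the WT libraries was larger than counting error gives, at 2.63-fold with an interval from 1.23 to 6.24. The log2 fold change of -1.39 was the lowest of the 29, with an SE of 0.59 and an interval from -2.54 to -0.24, and was not called (limma adjusted p = 0.309). It ranged from -2.13 to -0.65 with a library left out. *Osbp*, which exchanges sterol at contacts between the endoplasmic reticulum and the Golgi, had values of 43.2 and 39.6 in WT against 36.9 and 22.3 in Rxra-KO, at a log2 fold change of -0.51 without overlap (adjusted p = 0.768). *Srebf2*, which encodes SREBP2, averaged 14.1 ± 3.86 in WT against 12.1 ± 0.973 in Rxra-KO (SD, n = 2 each), a log2 fold change of -0.18. Its interval ran from -1.35 to 0.99, at 7 to 15 reads per library. *Scap*, at -0.21, and *Insig2*, at -0.20, overlapped between groups, and WT replicate 2 was the highest library for both. *Soat1*, which esterifies cholesterol for storage in lipid droplets, averaged 158 ± 17.3 in WT against 161 ± 35.3 in Rxra-KO, at a log2 fold change of 0.01 with an interval from -0.50 to 0.53.

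The spread between replicates was large beside most differences between groups. In 22 of the 29 genes the gap between the replicates of at least 1 group was larger than the gap between group means, as in 74.0% of all genes. WT replicate 2 was the highest of the 4 libraries in 15 of the 29, against 25.6% of all genes, a count made after the values were seen. It was also the library with the highest proliferation sum, with *Mki67* at 942 against 417 in WT replicate 1 and *Top2a* at 246 against 70.4, and the part of this in the cholesterol genes was not tested. Beyond counting error, the WT replicates differed in 6 genes (*Mvk*, *Sqle*, *Cyp51*, *Npc2*, *Scap* and *Insig1*) and the Rxra-KO replicates in 4 (*Fdps*, *Lrp1*, *Npc1* and *Soat1*). Mean reads per library were under 10 in 5 genes, from 10 to 100 in 21 and at least 100 in 3 (*Lrp1*, *Npc2* and *Soat1*), and no gene was at or under 3 reads in both libraries of a group. In 8 genes (*Hmgcs1*, *Pmvk*, *Fdps*, *Cyp51*, *Lrp1*, *Npc2*, *Insig2* and *Soat1*) the interval lay within 1 of 0, and for the others it reached past that bound. With 1 library left out, 15 of the 29 changed direction under at least 1 of the 4 omissions.

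**Figure D4:**
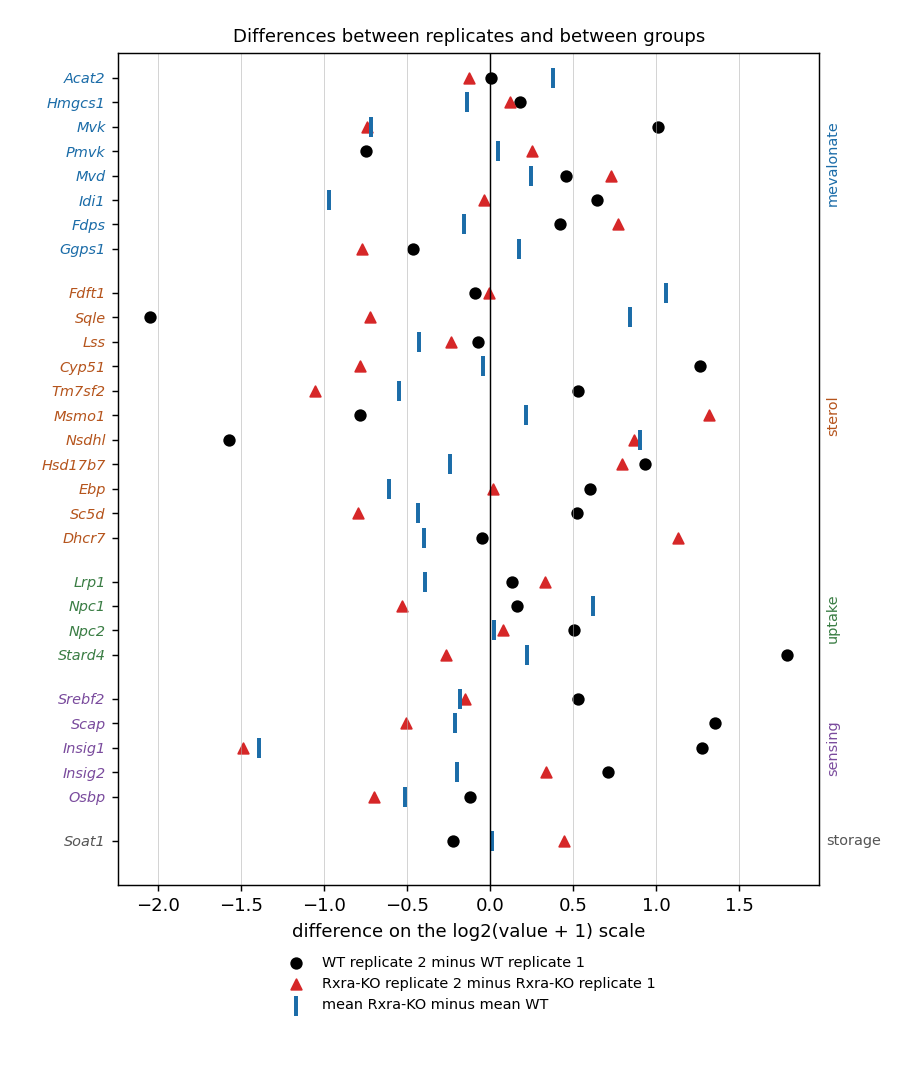
Differences on the log2(value + 1) scale for each gene between the WT replicates (circles), between the Rxra-KO replicates (triangles) and between the group means (bars). For *Fdft1* the bar at 1.06 lies far from both replicate marks near 0, whereas in 22 genes a replicate mark is farther from 0 than the bar.

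**Figure D5:**
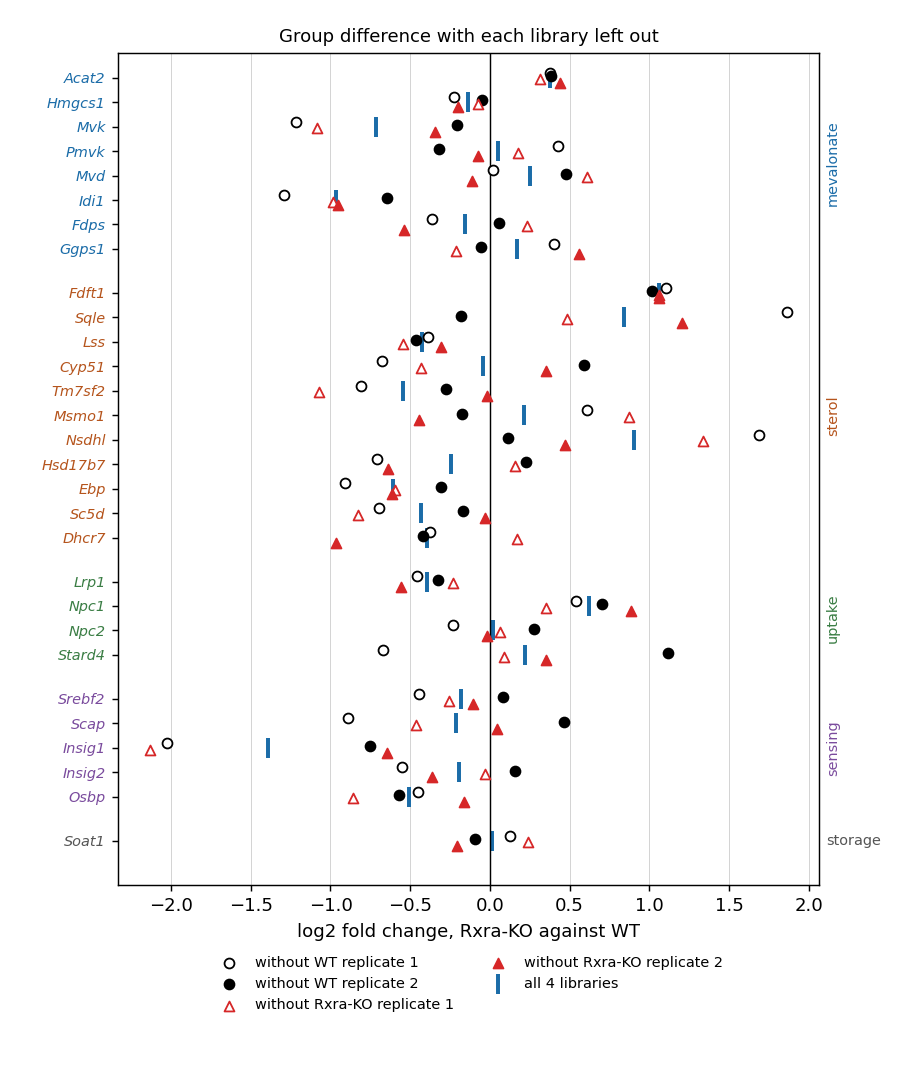
Log2 fold change of each gene with all 4 libraries (bars) and with each library left out in turn (circles, without a WT library; triangles, without an Rxra-KO library). *Fdft1* stays between 1.02 and 1.11 and *Insig1* ranges from -2.13 to -0.65, while 15 genes have marks on both sides of 0.

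Genes next to these in the pathway were read from lists of 99 genes, 95 of them in the table. Of the 95, 1 was called higher and 1 was called lower, beside 1.32% and 0.969% of all genes, and the median log2 fold change was -0.01. *Lbr*, whose product has the same sterol reductase activity as *Tm7sf2* beside its role in the nuclear envelope, fell from 310 and 398 in WT to 175 and 193 in Rxra-KO (log2 fold change -0.93, SE 0.24, limma adjusted p = 0.009). *Abca1*, the cholesterol efflux transporter that LXR-RXR is known to induce, rose from 101 and 40.7 in WT to 147 and 205 in Rxra-KO (log2 fold change 1.42, limma adjusted p = 0.00019). The groups did not overlap in either gene. No gene was called among 15 of isoprenoid use (median -0.01), 20 of SREBP transport and cleavage and reductase degradation (median 0.06), 13 of lipoprotein uptake (median -0.14), 19 sterol transfer proteins (median 0.17) or 11 of fatty acid synthesis (median -0.39), the last being the other branch that SREBPs control. Other sterol synthesis enzymes numbered 7, with *Lbr* called lower, and ester, oxysterol and efflux genes 10, with *Abca1* called higher and a median of 0.55.

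Promoter windows were taken from RefSeq (GRCm38.p6), 250 bases before to 50 after each gene start, and 24 of the 29 genes had at least 1. The 5 without a window were *Fdft1*, *Sqle*, *Fdps*, *Stard4* and *Npc1*, so the promoter of *Fdft1*, the only gene called, was not searched. A gene counted as holding a motif where any of its windows did, and 20 of the 24 had a single window. The windows were searched on both strands for CCAAT, the box bound by NF-Y, which works beside SREBP at sterol-regulated promoters, and for TCACNCCAC, a core of the sterol regulatory element, and no match of the first lies inside a match of the second. CCAAT was found in 21 of the 24 genes (87.5%), against 42% of the 13664 genes of the table with a window. Median GC content was 62.2% in the windows of the 24 and 58.3% in those of table genes. TCACNCCAC was found in 1 of 24, *Hmgcs1*, against 1.54% of table genes. DR4, the element of LXR-RXR, was found by its consensus in 0 of 24 and in 0 of the 13664 table genes, so this search could not set the 24 apart. It was found in 0.0152% of all 32851 windows. The promoters of 3 genes are shown without their last 50 bases, since *Idi1* and *Insig1* are the genes lower at an unadjusted p under 0.05 and *Hmgcs1* is the one with a sterol element match, and the capitals mark each CCAAT (as CCAAT or ATTGG) and the sterol element core. They lie at chr13:8885356-8885605 for *Idi1*, chr5:28071162-28071411 for *Insig1* and chr13:119690101-119690350 for *Hmgcs1*, all on the plus strand, and end just before the gene start.
Idi1: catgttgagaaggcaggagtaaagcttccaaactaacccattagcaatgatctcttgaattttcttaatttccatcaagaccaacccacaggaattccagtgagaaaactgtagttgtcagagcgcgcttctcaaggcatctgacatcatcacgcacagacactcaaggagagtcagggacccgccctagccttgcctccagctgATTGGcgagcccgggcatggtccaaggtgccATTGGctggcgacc
Insig1: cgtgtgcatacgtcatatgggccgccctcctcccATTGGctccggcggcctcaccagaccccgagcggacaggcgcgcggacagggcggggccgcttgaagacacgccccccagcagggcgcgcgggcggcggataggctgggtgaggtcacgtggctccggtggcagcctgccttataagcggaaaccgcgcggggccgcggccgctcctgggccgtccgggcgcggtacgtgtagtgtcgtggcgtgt
Hmgcs1: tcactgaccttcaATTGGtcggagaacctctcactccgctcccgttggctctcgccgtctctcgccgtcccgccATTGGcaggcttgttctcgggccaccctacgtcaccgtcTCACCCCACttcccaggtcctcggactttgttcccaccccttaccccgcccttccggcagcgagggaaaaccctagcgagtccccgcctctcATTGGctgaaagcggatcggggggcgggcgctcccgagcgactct
The *Idi1* stretch held 2 CCAAT boxes, the *Insig1* stretch 1 and the *Hmgcs1* stretch 3 with 1 sterol element core. A match is a description of letters, and no match says only that these letters were not in the window.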

How the data were processed

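LPMs were sorted by the authors from WT and Rxra-KO mice, 2 libraries each, prepared with the low-input SMART-Seq v4 chemistry without molecular identifiers and sequenced on a NextSeq-500. Per the submitters' processing notes and the study's methods, Kallisto 0.43.0 quantified the transcripts, and groups were compared in limma with TMM scaling. The notes name the human build GRCh38 for these mouse libraries, so the reference is not settled, and the table carries no coordinates. The study left out samples that did not cluster with their group.

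The authors deposited a normalised signal per gene and library. Each was (reads + 0.5) times a fixed step per library, and whole reads were recovered for 100% of values within 0.01 read. Replicates are numbered as in the sample titles.

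Values were fitted as log2(value + 1), a scale that understates changes of low genes, with limma 3.58.1 (R 4.3.3) and a mean-variance trend. The 4 libraries entered 1 fit without covariates, and two-sided p-values were adjusted by Benjamini-Hochberg over all 18364 genes. A minimum value of 1 in 2 or more libraries removed none, so all 29 genes passed. The design allowed for either unit, and limma was used because the values are normalised. With 2 libraries against 2, an exact permutation test cannot go below p = 0.333. Intervals between replicates are exact binomial ones at 95% and, like the limit of 3 reads, cover counting error only. Alternatives used edgeR 4.0.16 and DESeq2 1.42.0 on the recovered reads. The fits were also run on simulated reads with a seeded set of changed genes and the same dispersion for every gene. Such a run checks that the code recovers large changes and cannot test any single call made here.

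The genes and lists were chosen with earlier results of these data known. Values are given per library for genes that were called, had an unadjusted p under 0.05, did not overlap between groups or had a log2 fold change of 0.6 or more in size. Markers and neighbouring genes were matched by current or older symbols.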

Additional observations from a re-analysis of the deposited data

How the results depend on the processing

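Over all genes, 421 were called. The count was 375 to 446 under other pseudocounts, filters and scalings and with edgeR and voom, 296 at an adjusted p under 0.01, 246 with DESeq2, and 0 with limma without a trend (1579 at an unadjusted p under 0.05). Leaving out 1 library gave 167 to 381, lowest without Rxra-KO replicate 1 and 240 without WT replicate 2, where the lone library of a group is assumed to vary like the other group. Of the 29 genes 1 was called, *Fdft1*, and 0 with limma without a trend, with DESeq2, at an adjusted p under 0.01 and with any library left out (0 to 0), while 1 gene had an unadjusted p under 0.05 with DESeq2 and 1 without a trend. The log2 fold change of *Fdft1* kept its direction throughout, and its adjusted p was 0.0128 with edgeR, 0.0202 with voom, 0.0782 with DESeq2 and 0.55 without a trend. The median of the 29 ranged from -0.39 to -0.03 with a library left out. Replicate numbers did not pair the samples (r = 0.064 between replicate differences of the 2 groups, over 8850 genes), and a replicate block gave 540 calls with 1 of the 29, *Fdft1*. Calls higher in Rxra-KO were 57.7% of all calls, 44.8% without Rxra-KO replicate 2 and 70.4% without WT replicate 2. Depth limits the low genes: 5 of the 29 had a mean of under 10 reads per library.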
